A study of Mus musculus with 12 samples.

Results

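The 10 genes described here are regulators of the hair follicle and its growth cycle: Lef1, Msx1, Msx2, Foxn1, Hoxc13, Dlx3, Shh, Gata3, Sox21 and Fgf5. They were chosen by name and matched by symbol to the gene identifiers of an RNA sequencing (RNA-seq) table, and all 10 of 10 were found among its 55401 genes. Of the 10, 9 passed a filter on low values, a mean of at least 1 FPKM over the 12 samples, and so were among the 14313 genes tested. Fgf5 did not pass, with a mean of 0.688 FPKM. FPKM, fragments scaled to transcript length and library size, is a level per transcript length, so that levels of different genes can be set side by side.

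The hair follicle passes through growth (anagen), regression (catagen) and rest (telogen). In anagen, epithelial cells of the hair matrix divide around the dermal papilla, a cluster of specialised fibroblasts, and differentiate into the hair shaft and the inner root sheath that guides it. Wnt signals acting through LEF1, BMP signals with their MSX targets, and the signalling protein sonic hedgehog control matrix growth and differentiation, and FGF5 acts late in anagen to end the growth phase.

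The samples were labelled dermis and came from C57BL/6 mice aged 6 weeks, either wild type (WT) or carrying the Cthrc1-/- genotype, in which the gene for the secreted protein CTHRC1 is inactivated. The submitters describe a model of matched wounds of equal size, sampled on day 0 and day 7. Each genotype had 3 biological replicates on each day, which gave 4 groups. The labels used here do not give the body site, the part of the wound taken, the sex of the mice, any clipping or depilation of hair, or how the allele was made. Cthrc1 itself checked the labels: WT libraries held at least 1813 counts of it and Cthrc1-/- libraries at most 15. Total counts were 48329668 to 76938132 per sample. The labelled tissue was checked against marker genes. Summed over 8 fibroblast markers, the level was 400 to 6736 FPKM, and summed over 12 markers of the epidermis between follicles it was 2613 to 10930 FPKM, with no gene of either list at 0 in any sample. Transcripts of epidermis were therefore abundant in every library labelled dermis. In such bulk samples, fewer cells of a type and less RNA per cell cannot be told apart.

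Sequence upstream of the genes was examined because 8 of the 10 encode transcription factors and most of the 10 moved together. RefSeq's table for GRCm38.p6 held the 250 bases before the start of 7 of the 10 (Lef1, Msx1, Msx2, Foxn1, Gata3, Sox21 and Fgf5) in 10 windows, of which 4 were for alternative starts of Lef1. Hoxc13, Dlx3 and Shh had no entry. Each motif was searched on both strands. The homeodomain core TAATTA, the kind of site that MSX, DLX and HOX proteins can bind, occurred before Foxn1 (bases -29 to -24 from its start) and before Msx2 (bases -187 to -182), against 4.84% of 32536 mouse windows. The core CTTTGA of the TCF/LEF family occurred before Sox21 and 2 times before an alternative start within the Lef1 gene, against 13.9% of windows. The GATA core AGATAA was in none of the members' windows and in 9.97% of all windows. GACGC, a core reported for FOXN1, was before Lef1, Msx2, Gata3 and Fgf5, against 22.7% of windows. These are matches of letters and not measured binding. The shares are per window and not matched for base composition, while members are counted by gene and Lef1 has 4 windows. Whether the members differ from all windows was not tested. Starts here are those of RefSeq. In the GENCODE annotation, whose gene positions are given below, the Msx2 and Gata3 windows lie inside the genes. They overlap 2 annotated exons for Msx2 and 1 for Gata3. The windows of Foxn1 and of the Lef1 start, and 30 bases around the matches of Msx2 and Sox21, are printed 5′ to 3′ on the gene's strand, with the matches in capitals. TCAAAG is CTTTGA read on the opposite strand.
Foxn1, chr11:78386609-78386858, minus strand: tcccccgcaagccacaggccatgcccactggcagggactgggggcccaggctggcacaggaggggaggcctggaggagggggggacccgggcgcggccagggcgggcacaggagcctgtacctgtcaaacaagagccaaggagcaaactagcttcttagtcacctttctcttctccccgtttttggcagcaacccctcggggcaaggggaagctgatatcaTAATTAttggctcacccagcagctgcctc
Lef1, chr3:131156044-131156293, plus strand: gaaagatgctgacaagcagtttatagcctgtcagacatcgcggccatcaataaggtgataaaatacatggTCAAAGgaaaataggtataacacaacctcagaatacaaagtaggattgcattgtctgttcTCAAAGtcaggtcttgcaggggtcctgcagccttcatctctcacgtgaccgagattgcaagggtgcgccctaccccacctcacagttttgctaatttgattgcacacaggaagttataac
Msx2, chr13:53472950-53472979, minus strand: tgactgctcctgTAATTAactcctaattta
Sox21, chr14:118237127-118237156, minus strand: ctaaacctgcacTCAAAGtgaaaaaagagt

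On day 0, 4 of the 9 regulators tested were called higher in Cthrc1-/- than in WT, namely Shh, Dlx3, Msx2 and Lef1, and the Cthrc1-/- replicates were unequal. The other 5 tested did not pass. Shh, Dlx3, Msx2 and Lef1 were also the 4 called higher on day 7 than on day 0 in WT. On day 7 no member was called between the genotypes. The values of every sample follow, ordered by the members' roles. They are given as replicates 1, 2 and 3 of each group, whose numbers have no order.

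**Figure D1:**
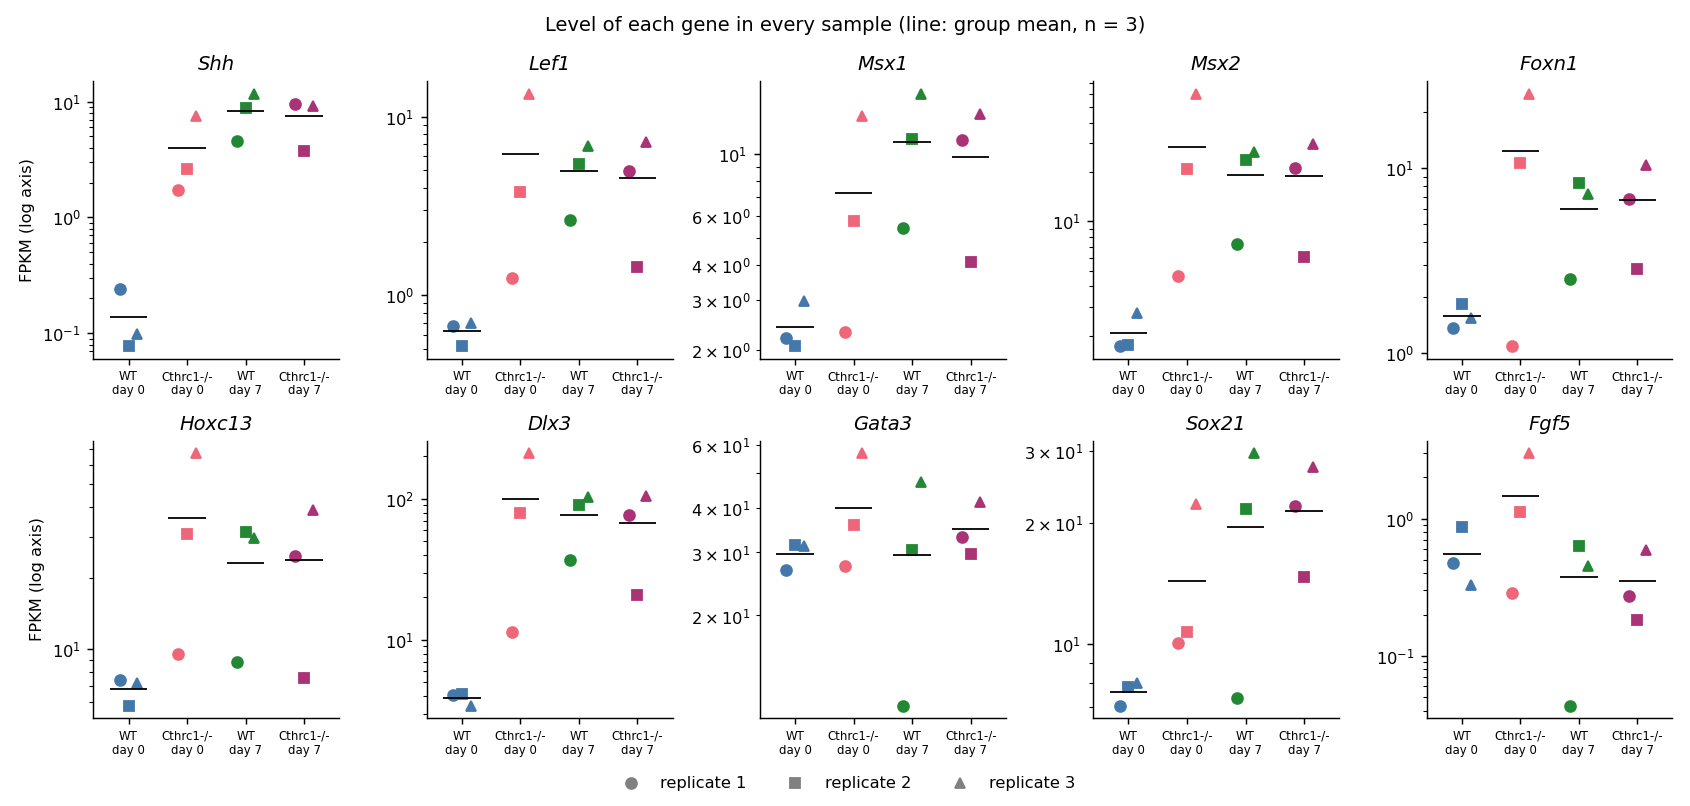
FPKM (log axis, one panel per gene with its own range) of the 10 regulators in the 12 samples, with a line at each group's mean (n = 3). For Shh the 3 WT day 0 samples lie at 0.0775 to 0.243 FPKM, below the other 9 samples, which lie at 1.74 to 11.7 FPKM.

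Shh (ENSMUSG00000002633, chromosome 5, 28456815 to 28467256, minus strand, GRCm38) encodes sonic hedgehog, the ligand made at the tip of the growing follicle. Its level in WT day 0 was 0.243, 0.0775 and 0.0980 FPKM. In Cthrc1-/- day 0 it was 1.74, 2.64 and 7.51 FPKM. On day 7 it was 4.54, 8.74 and 11.7 FPKM in WT and 9.53, 3.75 and 9.21 FPKM in Cthrc1-/-. Every sample outside WT day 0 was at least 1.74 FPKM, so WT day 0 did not overlap any other group. The WT day 0 values rest on only 41, 19 and 16 counts. Means for WT were 0.139 ± 0.0900 FPKM on day 0 and 8.33 ± 3.6 FPKM on day 7, and for Cthrc1-/- they were 3.96 ± 3.10 and 7.50 ± 3.25 FPKM (SD, n = 3 each). From low to high the means stood in the order WT day 0, Cthrc1-/- day 0, Cthrc1-/- day 7, WT day 7. Of the steps between neighbours, only the first passed the test.

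Fgf5 (ENSMUSG00000029337, chromosome 5, 98254184 to 98277030, plus strand) encodes the other secreted ligand of the set, a growth factor whose loss lengthens hair in the angora mouse. Its level in WT day 0 was 0.473, 0.867 and 0.330 FPKM. The Cthrc1-/- samples of that day had 0.288, 1.12 and 3.00 FPKM. The day 7 values were 0.0434, 0.628 and 0.451 FPKM in WT and 0.272, 0.183 and 0.592 FPKM in Cthrc1-/-. All groups overlapped, and the highest value, in Cthrc1-/- day 0 replicate 3, was the highest of all 12 samples. Counts were 8 to 401 per sample. Fgf5 was tested only in a fit without the filter on low values. Between days in Cthrc1-/- it had -2.16 on the log2 scale there (edgeR adjusted p 0.393), and the other comparisons had adjusted p of 0.476 to 1.

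Lef1 (ENSMUSG00000027985, chromosome 3, 131110471 to 131224356, plus strand) encodes the DNA-binding partner of beta-catenin in the hair matrix and precortex. Its level in WT day 0 was 0.676, 0.519 and 0.696 FPKM. The Cthrc1-/- samples of that day had 1.25, 3.79 and 13.5 FPKM. WT day 7 had 2.63, 5.45 and 6.84 FPKM, and Cthrc1-/- day 7 had 4.98, 1.44 and 7.19 FPKM. WT day 0 lay below every other sample, and the Cthrc1-/- day 0 samples spanned the range of both day 7 groups. Lef1 and Shh had means under 1 FPKM in WT day 0 and passed the filter through the other groups.

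Msx1 (ENSMUSG00000048450, chromosome 5, 37820485 to 37824583, minus strand) and Msx2 (ENSMUSG00000021469, chromosome 13, 53466884 to 53473074, minus strand) encode related homeodomain repressors of the matrix that respond to BMP. Msx1 in WT day 0 was 2.20, 2.06 and 2.98 FPKM. The Cthrc1-/- day 0 values were 2.31, 5.77 and 13.7 FPKM, so that replicate 1 lay within the WT range. Its day 7 values were 5.42, 11.3 and 16.4 FPKM in WT and 11.2, 4.12 and 13.9 FPKM in Cthrc1-/-, all above WT day 0. Msx2 in WT day 0 was 1.72, 1.76 and 2.74 FPKM. The Cthrc1-/- day 0 values were 4.63, 21.0 and 60.3 FPKM, all above WT. Its day 7 values were 7.26, 23.6 and 26.6 FPKM in WT and 21.1, 6.08 and 29.6 FPKM in Cthrc1-/-. The paralogs had similar levels in WT day 0, with means of 2.41 FPKM for Msx1 and 2.08 FPKM for Msx2, and in Cthrc1-/- day 0 the means were 7.26 FPKM for Msx1 and 28.6 FPKM for Msx2.

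Foxn1 (ENSMUSG00000002057, chromosome 11, 78357577 to 78386558, minus strand) encodes the factor that is lost in the nude mouse and drives hair keratin expression and shaft differentiation. Its level in WT day 0 was 1.37, 1.83 and 1.56 FPKM. Cthrc1-/- day 0 had 1.09, 10.7 and 25.2 FPKM. Replicate 1 was the lowest of all 12 samples and replicate 3 the highest. On day 7 Foxn1 was 2.53, 8.27 and 7.26 FPKM in WT and 6.84, 2.86 and 10.4 FPKM in Cthrc1-/-.

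Hoxc13 (ENSMUSG00000001655, chromosome 15, 102921103 to 102928814, plus strand) encodes a homeodomain activator of hair keratin genes. In WT day 0 it was 7.44, 5.78 and 7.18 FPKM, and in Cthrc1-/- day 0 it was 9.52, 30.8 and 67.5 FPKM. On day 7 Hoxc13 was 8.88, 31.3 and 29.7 FPKM in WT and 24.9, 7.59 and 39.0 FPKM in Cthrc1-/-. The lowest sample of each of these 3 groups was at 7.59 to 9.52 FPKM, near the WT day 0 mean of 6.80 FPKM, while the other 6 samples were at 24.9 FPKM or more.

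Dlx3 (ENSMUSG00000001510, chromosome 11, 95120119 to 95125296, plus strand) encodes a homeodomain factor required for hair shaft and inner root sheath formation, and it reached the highest level of the set. In WT day 0 it was 4.09, 4.12 and 3.41 FPKM. In Cthrc1-/- day 0 it was 11.4, 79.4 and 210.8 FPKM. By day 7 it was 36.7, 91.3 and 103.1 FPKM in WT and 77.05, 20.9 and 105.4 FPKM in Cthrc1-/-. No sample of the other groups overlapped WT day 0.

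Gata3 (ENSMUSG00000015619, chromosome 2, 9857078 to 9890034, minus strand) encodes a factor that specifies the inner root sheath and is also expressed in epidermis and lymphocytes. It was 26.7, 31.4 and 31.3 FPKM in WT day 0 and 27.6, 35.8 and 56.8 FPKM in Cthrc1-/- day 0. On day 7 it was 11.2, 30.4 and 47.1 FPKM in WT and 33.2, 29.8 and 41.4 FPKM in Cthrc1-/-. The groups overlapped in every comparison. Summed over 10 T cell markers, a further source of Gata3, the level was 36.8 to 50.6 FPKM on day 0 and 27.9 to 64.4 FPKM on day 7, and their part in the Gata3 values was not tested.

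Sox21 (ENSMUSG00000061517, chromosome 14, 118233232 to 118237030, minus strand) encodes a factor of the hair shaft cuticle whose loss causes cyclic hair loss. It was 7.03, 7.82 and 8.02 FPKM in WT day 0 and 10.1, 10.7 and 22.2 FPKM in Cthrc1-/- day 0. On day 7 it was 7.35, 21.6 and 29.7 FPKM in WT and 21.9, 14.7 and 27.5 FPKM in Cthrc1-/-. WT day 7 replicate 1 lay within the WT day 0 range, and the other 8 samples outside WT day 0 lay above it. Reads of Lef1, Shh, Gata3 and Sox21 could not be told apart from those of other annotated genes that overlap them (2, 2, 3 and 1 genes), because the strand used in counting is not given in the sources used here.

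**Figure D2:**
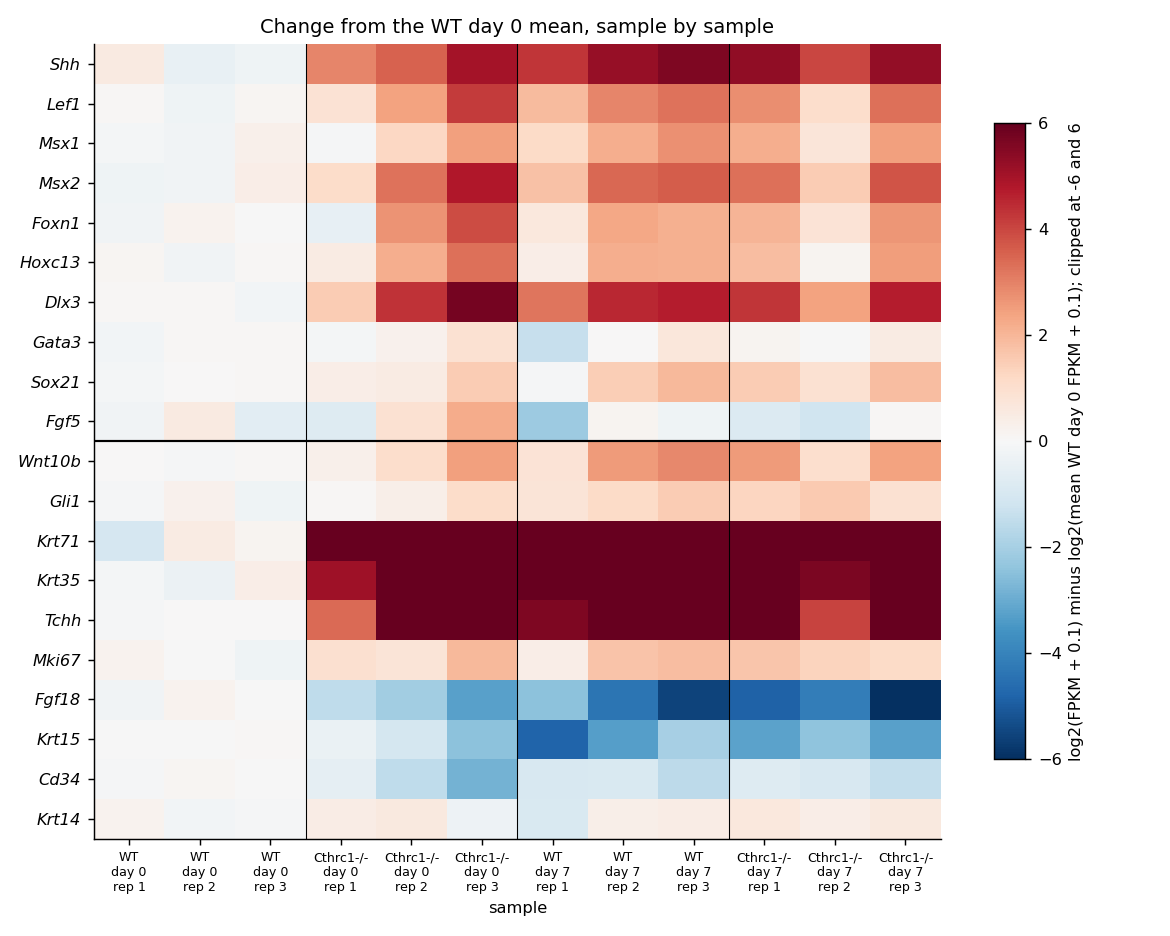
Colours give log2(FPKM + 0.1) minus log2 of the WT day 0 mean FPKM + 0.1 for each of the 12 samples, clipped at -6 and 6, with the 10 regulators above the line and 10 genes of the pathway and marker lists below it. Cthrc1-/- day 0 replicate 1 is paler than replicates 2 and 3 in the upper rows, with Dlx3 at 2.94 times the WT day 0 mean against 20.5 and 54.4 times.

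Cthrc1-/- against WT on day 0 asked whether the genotypes differed on the first sampling day. The log2 change was 4.65 for Shh (standard error 0.690, edgeR adjusted p 0.0144), 4.53 for Dlx3 (0.934, adjusted p 0.0329), 3.62 for Msx2 (0.875, adjusted p 0.0447) and 3.11 for Lef1 (0.795, adjusted p 0.0496). These 4 of 9 members tested rose, against 3.51% of all 14313 genes tested, and no member fell, against 2.26% of all genes. The median log2 change over the 9 members was 2.79, against -0.05 over all genes tested. Foxn1 (log2 change 2.79, adjusted p 0.0801), Hoxc13 (2.25, adjusted p 0.0842) and Msx1 (1.43, adjusted p 0.154) did not pass, nor did Sox21 (0.78, adjusted p 0.247) or Gata3 (0.30, adjusted p 0.636). The FPKM of 6 of the 10 genes was higher in every Cthrc1-/- sample than in every WT sample (Shh, Dlx3, Msx2, Lef1, Hoxc13 and Sox21), a pattern shown by 21.5% of all genes tested.

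The Cthrc1-/- day 0 samples were unequal. Replicate 1 was the lowest of its group and replicate 3 the highest for all 10 genes, and replicate 3 was the highest of all 12 samples for 7 of them. Against the WT day 0 mean, Shh was 12.5, 18.9 and 53.9 times as high in replicates 1, 2 and 3. Foxn1 was 0.688, 6.72 and 15.9 times as high, and Msx1 was 0.958, 2.39 and 5.68 times as high. In replicate 1, Shh thus stood furthest above WT. Dlx3, Msx2, Lef1, Hoxc13 and Sox21 were there 2.94, 2.23, 1.98, 1.40 and 1.32 times the WT day 0 mean, each above every WT day 0 sample. Foxn1, Msx1, Gata3 and Fgf5 were below the WT day 0 mean. The median coefficient of variation of the 10 genes (SD over mean) was 88.0% in this group and 58.9% in its day 7 counterpart, and in WT it was 15.0% on day 0 and 52.3% on day 7. Over all genes tested these medians were 23.2%, 15.2%, 9.65% and 21.6%.

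The day 0 calls rest on the choice of samples. Without Cthrc1-/- day 0 replicate 3 only Shh passed (log2 change 3.89, edgeR adjusted p 0.0231), and without replicate 1 of that group 6 members passed, Foxn1 (adjusted p 0.0118) and Hoxc13 (adjusted p 0.0278) among them. None passed without WT day 0 replicate 2 or without WT day 0 replicate 3, where the adjusted p of Shh was 0.0871 and 0.0779, and none passed when only the day 0 samples were fitted (Shh adjusted p 0.0792). Over the 12 fits that each left out 1 sample, Shh passed in 10, Dlx3 in 5, Msx2 in 3 and Lef1 in 2.

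**Figure D3:**
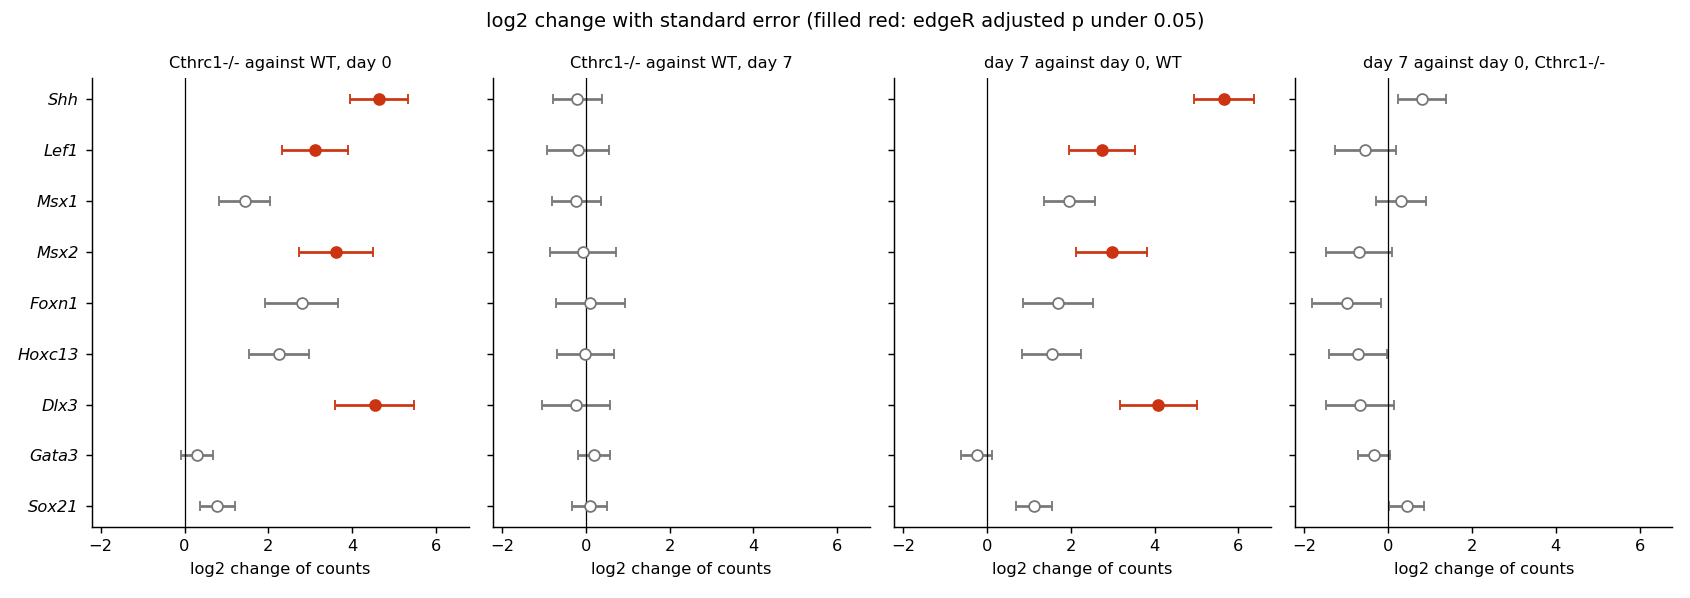
Log2 changes of counts (points, with bars of 1 standard error) for the 9 regulators tested, in 4 comparisons, with filled points where the edgeR adjusted p was under 0.05. Shh, Dlx3, Msx2 and Lef1 are filled in the panels for the genotypes on day 0 and for the days in WT, at 2.75 to 5.65, and no point is filled for the genotypes on day 7 or for the days in Cthrc1-/-.

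Day 7 against day 0 in WT asked how wild-type samples differed between the sampling days. Shh rose most (log2 change 5.65, standard error 0.720, edgeR adjusted p 0.00380), followed by Dlx3 (4.09, 0.914, adjusted p 0.0202), Msx2 (2.97, 0.851, adjusted p 0.0461) and Lef1 (2.75, 0.783, adjusted p 0.0454). These are 4 of 9 members, against 6.04% of all genes tested, and no member fell, against 7.10% of all genes. This comparison and the day 0 genotype comparison share the WT day 0 samples, so their likeness is no independent support. Msx1 (log2 change 1.97, adjusted p 0.0592), Sox21 (1.12, adjusted p 0.0967), Hoxc13 (1.55, adjusted p 0.157), Foxn1 (1.70, adjusted p 0.192) and Gata3 (-0.25, adjusted p 0.697) did not pass. The median log2 change was 1.97 over the 9 members and -0.002 over all genes. The FPKM of 7 of the 10 genes was higher in every day 7 sample (all but Gata3, Sox21 and Fgf5), as it was for 29.8% of all genes tested. WT day 7 replicate 1 was the lowest of its group for all 10 genes. Shh passed with each of the 12 samples left out in turn (adjusted p at most 0.0254), while Dlx3 did not pass without WT day 0 replicate 1, 2 or 3 (adjusted p 0.0711 to 0.0792). Msx2 passed in 4 and Lef1 in 3 of those 12 fits.

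On day 7 none of the 9 members was called between genotypes, with log2 changes of -0.23 for Dlx3 to 0.21 for Gata3 and edgeR adjusted p of 0.997 to 1, against 0.0210% of all genes tested, which is 3 genes. For Shh the log2 change was -0.20, with an interval of 2 standard errors from -1.35 to 0.96, and for Dlx3 the interval ran from -1.84 to 1.38, so that severalfold differences remain within the error. All 10 genes overlapped between the genotypes, and 9.13% of all genes tested did not overlap. Cthrc1-/- day 7 replicate 2 was the lowest of its group for all 10 genes, with Hoxc13 at 7.59 FPKM near the WT day 0 level and Shh at 3.75 FPKM far above it.

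Between days in Cthrc1-/- no member was called, against 1.46% of all genes tested. Shh (log2 change 0.81, edgeR adjusted p 0.506), Sox21 (0.45, adjusted p 0.617) and Msx1 (0.31, adjusted p 0.828) had positive values, and the other 6 had values of -0.98 for Foxn1 (adjusted p 0.573) to -0.34 for Gata3 (adjusted p 0.688). The median was -0.54 over the members and -0.01 over all genes. All 10 genes overlapped between the days, whereas 26.5% of all genes tested did not.

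The interaction asked whether the change between days differed by genotype. All 9 values were negative, from -4.85 for Shh (edgeR adjusted p 0.143) and -4.76 for Dlx3 (adjusted p 0.193) to -0.09 for Gata3 (adjusted p 0.948), and none passed, against 0.0140% of all genes, which is 2 genes. Msx2 had -3.67 (adjusted p 0.229), Lef1 -3.29 (adjusted p 0.236), Foxn1 -2.68 (adjusted p 0.321) and Hoxc13 -2.26 (adjusted p 0.319). The interaction equals the genotype change on day 7 minus that on day 0. The day 7 changes were small (-0.23 to 0.21) and all 9 day 0 changes were positive. The shared negative sign therefore largely restates the day 0 comparison and is no independent support. Of the 14313 genes, 2164 had an unadjusted p under 0.05, 6 of the 9 members among them. Shh and Dlx3 passed (adjusted p 0.0360 each) without Cthrc1-/- day 0 replicate 1, and DESeq2, a second count model, called Shh, Dlx3, Msx2 and Lef1. Whether the response differed between genotypes therefore depended on the samples and the count model.

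The regulators varied together across samples. Over the 12 samples, Pearson's r of log2(FPKM + 0.1) had a median of 0.818 over the 45 pairs of members. Lef1, Msx1, Msx2, Foxn1, Hoxc13 and Dlx3 had r of 0.878 to 0.989 among themselves, highest for Lef1 with Msx2. The lowest r of all, 0.012, was between Shh and Fgf5. After group means were removed and the 4 groups pooled, the lowest pair was Dlx3 with Gata3 at 0.682 and the median was 0.872. In each group but WT day 0, 1 replicate was the lowest for all 10 genes. WT day 0 had no such common order, with replicates 1, 2 and 3 highest for 2, 4 and 4 genes. These values describe 12 libraries in which all genes share the same RNA, tissue makeup and depth, and no test was made. Among 12568 other named genes, those most like Shh were Pclaf (r = 0.992), Cdca3 (0.992) and Cenpa (0.991). Those most like Dlx3 were Crym (0.995), Tchh (0.991) and Padi1 (0.991), and those most like Hoxc13 were St14 (0.986), Smad6 (0.978) and Unc5b (0.976). Msx1 was most like Wnt10b (0.978), Msx2 most like Vsig8 (0.985), Lef1 most like Dclk3 (0.983) and Foxn1 most like Gclc (0.976). For Gata3 the nearest gene was Emp2 (0.976), for Sox21 Tra2b (0.977) and for Fgf5 Dnajb13 (0.953).

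Shh did not keep a fixed ratio to Foxn1, and its ratios to the other differentiation regulators were not computed. In WT day 0 the ratio rests on only 41, 19 and 16 counts of Shh. The ratio of Shh to Foxn1, chosen after the values were seen and given without a test, was 0.177, 0.0423 and 0.0629 in WT day 0. Cthrc1-/- day 0 had 1.59, 0.247 and 0.297. On day 7 it was 1.80, 1.06 and 1.61 in WT and 1.39, 1.31 and 0.886 in Cthrc1-/-. Replicates 2 and 3 of Cthrc1-/- day 0 thus had more Foxn1 than any day 7 sample but less Shh for that Foxn1. Replicate 1 lay within the day 7 range in this ratio, but not in Shh or Foxn1 themselves. Its Foxn1 of 1.09 FPKM was the lowest of all 12 samples, and its Shh of 1.74 FPKM was below every day 7 sample. The ratio of Fgf5 to Foxn1 was 0.105 to 0.473 in the 6 day 0 samples and 0.0172 to 0.0759 in the 6 day 7 samples, without overlap between the days. Fgf5 had only 8 to 401 counts per sample, and its own FPKM overlapped between days in both genotypes. The Fgf5 ratios were also chosen after the values were seen and given without a test. How many other gene pairs separate the days was not counted. For Fgf5 over Shh, WT day 0 had ratios of 1.95 to 11.2, Cthrc1-/- day 0 had 0.166 to 0.425 and the day 7 samples had 0.00957 to 0.0718.

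**Figure D4:**
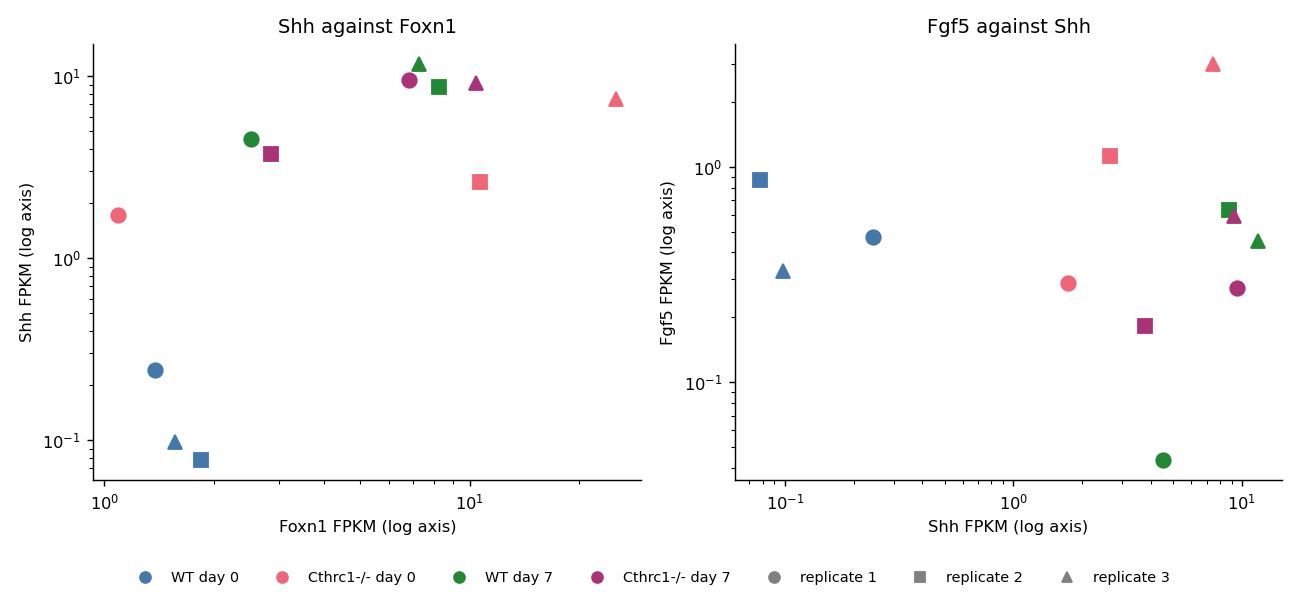
Each point is 1 of the 12 samples, with FPKM on log axes: Shh against Foxn1 on the left and Fgf5 against Shh on the right. On the left, Cthrc1-/- day 0 replicates 2 and 3 lie at the highest Foxn1 (10.7 and 25.2 FPKM), and the WT day 0 samples lie lowest in Shh (0.0775 to 0.243 FPKM).

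The hedgehog pathway beyond its ligand was described from 13 genes, of which 12 were tested. Counts for this and the following lists stand against 3.51% of all genes called higher and 2.26% lower on day 0. Between days in WT these shares were 6.04% and 7.10%. On day 0, Disp1, which releases the ligand from the cell, was the 1 gene of the 12 called, and it fell by 1.25 on the log2 scale in Cthrc1-/- (edgeR adjusted p 0.0288). It went from 3.51, 4.06 and 3.15 FPKM in WT to 2.06, 1.43 and 1.31 FPKM. The median of the 12 was 0.12 in this comparison, against -0.05 over all genes. Between days in WT, 2 rose and 3 fell. The target and effector Gli1 (log2 change 0.99, adjusted p 0.0332) and the inhibitor Sufu (0.54, adjusted p 0.0201) rose. The co-receptor Boc fell by 1.71 (adjusted p 0.00593), the ligand-releasing Scube2 fell by 1.62 (adjusted p 0.0105), and the co-receptor Gas1 also fell, by 0.87 (adjusted p 0.0467). The median was 0.09 there, against -0.002. Ptch1, the main receptor, did not pass in either comparison (log2 change 0.47, adjusted p 0.269, and 0.38, adjusted p 0.355). None of the 12 was called in the other comparisons. Gas1 and Smo, the most abundant, had log2 changes of 0.39 and -0.15 between genotypes on day 7, -0.57 and 0.32 between days in Cthrc1-/-, and 0.30 and 0.27 for the interaction.

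Of 28 tested genes of a wider list of anagen and matrix genes, 4 rose and 2 fell in Cthrc1-/- on day 0. The homeodomain gene Dlx4 (log2 change 4.25, edgeR adjusted p 0.0386) and the forkhead gene Foxe1 (4.18, adjusted p 0.0223) rose, while the BMP ligand Bmp4 fell by 2.66 (adjusted p 0.0231) and its antagonist Nog, noggin, fell by 1.64 (adjusted p 0.0257). The median of the list was 0.87, against -0.05 over all genes. Between days in WT, 8 rose and 3 fell, led by Dlx4 (4.29, adjusted p 0.0194), Foxe1 (3.87, adjusted p 0.00931), Nog, which fell by 3.30 (adjusted p 0.00205), and Bmp2, which fell by 2.69 (adjusted p 0.00779). The median was 0.38, against -0.002. Nog was the 1 gene of the 6 pathway lists that was called between days in Cthrc1-/-, where it fell by 2.00 (adjusted p 0.0216). Its level was 5.65 to 6.05 FPKM in WT day 0, 2.75, 1.85 and 1.32 FPKM in Cthrc1-/- day 0, and 0.479 to 0.719 FPKM on day 7. None of this list was called between genotypes on day 7 or for the interaction, and its most abundant genes, Barx2 and Hr, had log2 changes of 0.28 and 0.24 on day 7 and of -0.35 and -0.16 for the interaction.

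The structural genes downstream of the matrix moved in the same samples. Of 27 tested genes of hair shaft and inner root sheath proteins, 23 rose in Cthrc1-/- on day 0 and 19 rose between days in WT, with none lower. In WT day 0 replicates 1, 2 and 3, respectively 13, 3 and 4 of the 27 were listed at 0. Genes at or near 0 in WT day 0 passed the filter on low values through the other groups. They could hardly be called lower against WT day 0, so the shared direction was largely set in advance. No median is given, since several of these genes were listed at 0 in WT day 0. Krt71, an inner root sheath keratin and the most abundant of the list, was 0.307, 1.06 and 0.821 FPKM in WT day 0 and 66.1, 1526 and 3950 FPKM in Cthrc1-/- day 0. The 4 largest fitted changes on day 0 were those of the shaft keratins Krt33b, Krt82 and Krt81 and of Padi1, an enzyme that modifies arginines of sheath proteins. Krt33b, Krt82 and Padi1 were listed at 0 in all WT day 0 samples, so no fold is given. In Cthrc1-/- day 0 they reached 1.23, 76.4 and 199.7 FPKM for Krt33b, 0.328, 10.2 and 27.6 FPKM for Krt82 and 0.413, 11.0 and 19.6 FPKM for Padi1. Krt81 rose from at most 0.0639 FPKM to 2.17, 110.4 and 217.7 FPKM. Krt33b, Padi1, Krt82 and Krt25, a further inner root sheath keratin, had the largest fitted changes between days in WT. Krt25 was at most 0.766 FPKM in WT day 0 and was 496, 1063 and 1069 FPKM in WT day 7. No gene of the list was called on day 7 between genotypes, between days in Cthrc1-/- or for the interaction. Krt71 and Krt25 had log2 changes of -0.01 and -0.05 on day 7, of -0.87 and -0.94 between days in Cthrc1-/-, and of -11.13 and -11.53 (edgeR adjusted p 0.133 and 0.143) for the interaction.

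Genes of the resting follicle and its stem cells formed the next list. Of 15 tested, 5 fell between days in WT and none rose. Krt24 fell by 5.29 (edgeR adjusted p 0.00783), Fgf18, a growth factor of the telogen bulge, fell by 3.73 (adjusted p 0.0299), the bulge keratin Krt15 fell by 3.19 (adjusted p 0.0173) and Sox9 fell by 1.60 (adjusted p 0.00976). The median was -1.02, against -0.002 over all genes. Fgf18 was 27.4, 36.0 and 30.3 FPKM in WT day 0, 10.9, 7.196 and 3.14 FPKM in Cthrc1-/- day 0, 5.54, 1.42 and 0.558 FPKM in WT day 7, and 0.994, 1.65 and 0.260 FPKM in Cthrc1-/- day 7. Its order in Cthrc1-/- day 0 was the reverse of that of the members, with replicate 1 highest and replicate 3 lowest. Between genotypes on day 0 Fgf18 did not pass (log2 change -2.22, adjusted p 0.133), and the 1 gene of the list called there, the Wnt inhibitor Sfrp1, rose by 0.64 (adjusted p 0.0235), with a list median of 0.06. None was called in the other comparisons, where Krt15 and Cd34 had log2 changes of 0.04 and -0.01 on day 7, -2.02 and 0.13 between days in Cthrc1-/-, and 1.18 and 1.42 for the interaction.

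Of 10 tested regulators of catagen, Ngfr, the low-affinity neurotrophin receptor, fell by 1.76 in Cthrc1-/- on day 0 (edgeR adjusted p 0.0394) and by 1.80 between days in WT (adjusted p 0.0195), where the neurotrophin Ntf3 also fell by 3.14 (adjusted p 0.0263). None rose. The medians were -0.65 and 0.02, against -0.05 and -0.002. None was called elsewhere, where Stat3 and Fgfr1 had log2 changes between -0.25 and 0.05.

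Of 15 proliferation genes, 11 rose in Cthrc1-/- on day 0, with a median of 1.18 against -0.05 over all genes, and 14 rose between days in WT, with a median of 1.49 against -0.002. Bub1, a mitotic checkpoint kinase, rose by 1.54 and 1.77 (edgeR adjusted p 0.0308 and 0.00776), and Plk1, a mitotic kinase, rose by 1.42 and 1.84 (adjusted p 0.0317 and 0.00631). None was called in the other comparisons, where Pcna and Ccnb2 had log2 changes of -0.06 and -0.08 on day 7, -0.16 and 0.26 between days in Cthrc1-/-, and -0.20 and -1.23 for the interaction.

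**Figure D5:**
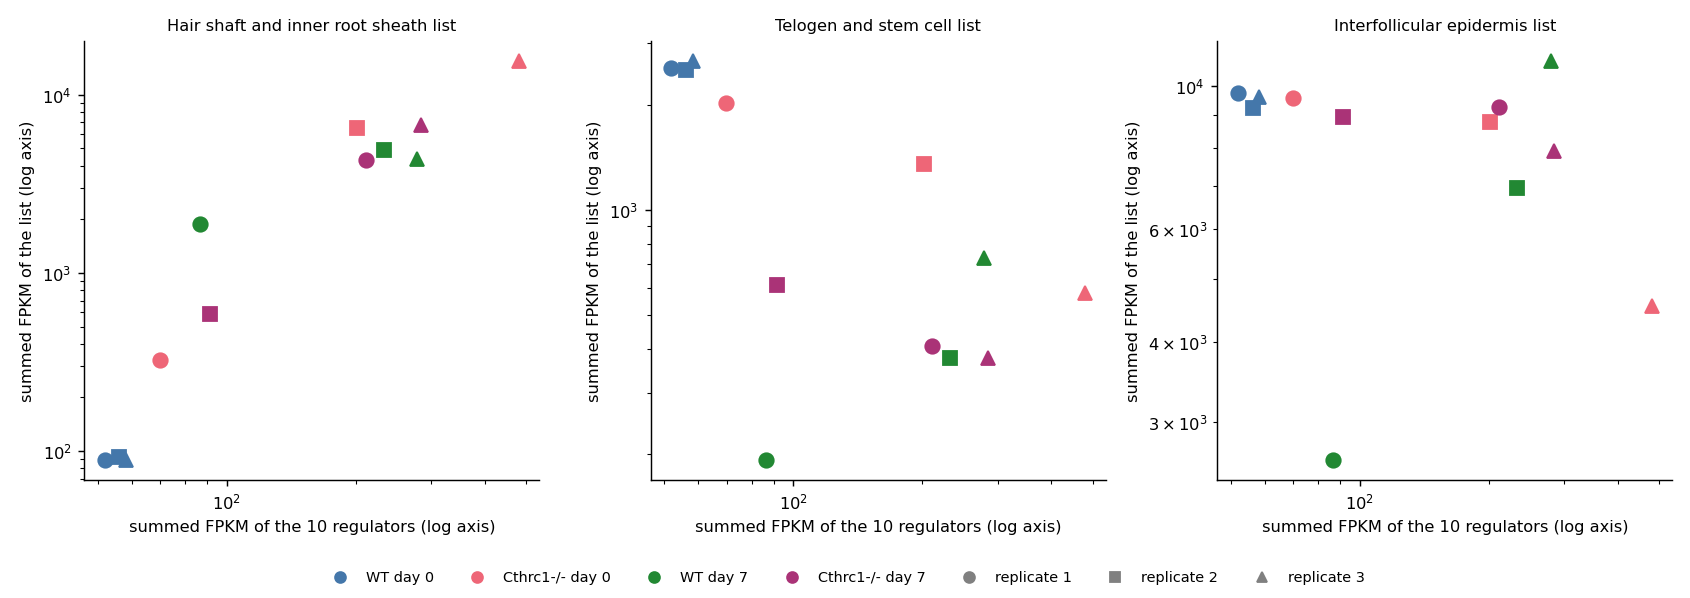
Each point is 1 of the 12 samples, with the FPKM summed over the 10 regulators on the horizontal axis and the FPKM summed over a gene list on the vertical axis (log axes). A sum follows the most abundant genes of its list. The hair shaft and inner root sheath sum lies between 88.7 and 92.7 FPKM in WT day 0 and reaches 15430 FPKM in Cthrc1-/- day 0 replicate 3, and the telogen and stem cell sum is highest in WT day 0, at 2525 to 2665 FPKM.

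Set against these lists sample by sample, WT day 0 had the lowest summed level of the 10 regulators (52.0 to 58.3 FPKM), the lowest hair shaft and inner root sheath sum (88.7 to 92.7 FPKM) and the highest telogen and stem cell sum (2525 to 2665 FPKM). Cthrc1-/- day 0 replicates 1, 2 and 3 had 69.9, 201.7 and 480.5 FPKM over the regulators, 326, 6479 and 15430 FPKM over the shaft and sheath list and 2024, 1352 and 579 FPKM over the telogen list. A sum follows the most abundant genes of its list. Gene by gene, 8 of the 15 telogen genes had positive log2 changes between genotypes on day 0. Their median was 0.06 and none was called lower. In WT day 7 the regulators summed to 86.6, 232.5 and 278.9 FPKM, the shaft and sheath list to 1874, 4934 and 4349 FPKM and the telogen list to 192, 378 and 729 FPKM. In Cthrc1-/- day 7 these sums were 211, 91.5 and 284 FPKM, 4319, 589 and 6730 FPKM, and 409, 611 and 377 FPKM. Cthrc1-/- day 0 replicate 1 and Cthrc1-/- day 7 replicate 2 thus had the lowest shaft and sheath sums outside WT day 0 (326 and 589 FPKM). They differed in the regulator sum (69.9 against 91.5 FPKM) and in the telogen sum (2024 against 611 FPKM). Within WT day 7 the telogen sum rose in the same replicate order as the regulator sum, whereas within Cthrc1-/- day 0 it fell. How closely any sum followed the regulators was not measured. Over the hedgehog list the sum was 112.9 to 122.3 FPKM in WT day 0, 99.0 to 116.9 FPKM in Cthrc1-/- day 0, 68.7 to 114.0 FPKM in WT day 7 and 101.0 to 120.2 FPKM in Cthrc1-/- day 7. The anagen and matrix sum was 272 to 290.3 FPKM in WT day 0 and 331 to 437 FPKM in Cthrc1-/- day 0. On day 7 it was 169.7, 292.8 and 378 FPKM in WT and 316, 276 and 338 FPKM in Cthrc1-/-, so that both day 7 groups overlapped or fell below WT day 0 in at least 1 sample. No hair cycle stage is given in the labels, and none was assigned to a sample here.

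Markers of other cell types also differed between these samples. Of all genes tested, 3.51% were called higher and 2.26% lower on day 0. Between days in WT these shares were 6.04% and 7.10%. Summed over the fibroblast markers, WT day 0 had 5145 to 6736 FPKM and Cthrc1-/- day 0 had 2638, 1440 and 400 FPKM, with Col1a2 the 1 of 8 genes called lower. The epidermis sum was 9253 to 9772 FPKM in WT day 0, 9593, 8781 and 4537 FPKM in Cthrc1-/- day 0, and 2613 FPKM in WT day 7 replicate 1 against 6930 and 10930 FPKM in replicates 2 and 3, with 0 of 12 genes called on day 0 and 2 lower between days in WT. The melanocyte sum was 18.4 to 19.7 FPKM in WT day 0, 37.2 to 156.8 FPKM in Cthrc1-/- day 0 and 62.1 to 200.6 FPKM on day 7, with 4 of 8 genes higher on day 0 and 6 higher and 1 lower between days in WT. Over the dermal papilla markers, 1 of 11 genes, Corin, was higher on day 0 and 5 were higher between days in WT. The macrophage and neutrophil sum was 90.1 to 263.8 FPKM on day 0, and in WT day 7 it was 5881, 1315 and 319 FPKM, highest in replicate 1, where the regulators were lowest. Adipocyte markers summed to 468 to 645 FPKM in WT day 0, 313, 181 and 97.2 FPKM in Cthrc1-/- day 0, 69.5 to 155.2 FPKM in WT day 7 and 71.4 to 211.6 FPKM in Cthrc1-/- day 7, with 0 of 7 genes called on day 0 and 6 lower between days in WT. The sebaceous gland sum was 598.5 to 781 FPKM in WT day 0, 1011, 760.4 and 377 FPKM in Cthrc1-/- day 0 and 153.7 to 469 FPKM on day 7, with 0 of 10 genes called on day 0 and 4 lower between days in WT. Skeletal muscle markers summed to 321 to 725 FPKM in WT day 0, 282, 197.8 and 73.0 FPKM in Cthrc1-/- day 0 and 119.9 to 1239 FPKM on day 7, with 0 of 10 called in either comparison and all 10 log2 changes negative on day 0. The endothelial sum was 51.5 to 52.8 FPKM in WT day 0, 14.5 to 41.4 FPKM in Cthrc1-/- day 0 and 48.7 to 142.2 FPKM on day 7, with 0 of 6 called in either. As for muscle, all log2 changes between genotypes on day 0 were negative for the 8 fibroblast, 7 adipocyte and 6 endothelial genes tested. The part of these cell types in the values of the regulators was not tested.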

How the data were processed

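RNA-seq of poly(A) RNA was done on 12 samples, grouped by their titles into 4 groups of 3. The libraries marked strand with dUTP and carried molecular identifiers, per the labels' protocols. The submitters' processing notes name cutadapt 1.9, HISAT2 2.0.4, UMI-tools, StringTie 1.3.4d, DESeq2, edgeR and the build GRCm38, without their roles. Whether counts were collapsed on the identifiers, and the strand used in counting, are not given in the sources used here. The deposited table holds a whole-number count and an FPKM per gene and sample, both computed by the authors. Counts at multiples of 4 were overrepresented, so division by 4 was an alternative. An FPKM of 0.0001, carried by genes with a count of 0, was taken as 0. Per-sample columns left unused numbered 0. Total counts were 48329668 to 76938132 per sample, which limits the precision for low genes such as Shh in WT day 0.

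Symbols and positions came from GENCODE M21 on GRCm38, which named 55141 of the 55401 identifiers, and promoters from RefSeq. Counts were tested with the two-sided quasi-likelihood test of edgeR 4.0.16 with TMM scaling in R 4.3.3. All 12 samples entered 1 fit with a mean per group, over the 14313 genes whose mean FPKM was 1 or more. Benjamini-Hochberg adjustment ran over all of them, genes were called under 0.05, and "adjusted p" refers to this test. The design allowed limma on FPKM had there been no counts. A standard error is the log2 change divided by the root of edgeR's F. The 10 members were named in every comparison, with the 4 largest called changes of each pathway list or, where none was called, its 2 most abundant genes. The genes most like a member were ranked by r among the named genes tested. Ratios, and genes named outside this rule, were chosen after their values were seen. The members and lists were chosen with earlier results of these data known, and 1 gene of the hedgehog list is not reported here.

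On counts simulated for WT between days (14313 genes), edgeR recovered 17.9%, 65.7% and 86.4% of genes changed by 1, 2 and 3 on the log2 scale, with 4.24% false calls. DESeq2 1.42.0 recovered 35.8%, 85.1% and 92.4% with 31.4% false calls, and limma 3.58.1 recovered 17.9%, 73.1% and 86.4% with 6.35%. Each gene's simulated spread was edgeR's estimate, the same in every group, and the interaction was not simulated. Alternatives were another count model (DESeq2), limma with trend on log2 FPKM with pseudocounts of 1 and 0.1, no filter, total-count scaling, only the groups compared, a replicate block, counts divided by 4, and each sample left out in turn.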

Additional observations from a re-analysis of the deposited data

Results flagged for a closer look

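Foxn1 day 7 samples lay on opposite sides of the day 0 mean in the genotypes, though neither change between days passed (WT log2 1.70, edgeR adjusted p 0.192, and Cthrc1-/- -0.98, adjusted p 0.573). In WT the day 7 mean was 3.79 times the day 0 mean and every day 7 sample was above the day 0 mean. In Cthrc1-/- every day 7 sample was below the day 0 mean of 12.3 ± 12.2 FPKM (SD, n = 3), which rests on replicates at 1.09, 10.7 and 25.2 FPKM. Without Cthrc1-/- day 0 replicate 3 the Cthrc1-/- log2 change was -0.01 (adjusted p 0.997). The interaction itself did not pass (log2 -2.68, edgeR adjusted p 0.321, and 0.0654 to 0.571 over its alternatives).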

How the results depend on the processing

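Of 9 members, 4 were called between genotypes on day 0. That count was 6 with DESeq2 (Foxn1 and Hoxc13 added), 3 with total-count scaling and with counts divided by 4, 1 with limma on log2(FPKM + 1), 2 with limma on log2(FPKM + 0.1), 2 without the filter, 0 with only the groups compared and 0 to 6 with 1 sample left out. With all samples kept, DESeq2 was the only alternative under which Lef1 passed. For WT between days the 4 calls became 6 with DESeq2 (Msx1 and Sox21 added), 6 with only the groups compared (Msx1 and Foxn1 added), 5 with total-count scaling (Msx1 added), 2 with limma on log2(FPKM + 1), 2 without the filter and 1 to 5 with 1 sample left out. For the interaction 0 became 4 with DESeq2 and 0 to 2 with 1 sample left out. The simulation covered only WT between days, so it cannot judge the interaction calls. The cause of the difference between the count models was not tested. The counts for day 7 and for Cthrc1-/- between days were 0 under every alternative run. Over all genes, day 0 calls numbered 827 as reported, 2787 with DESeq2, 275 without the filter and 19 with only the groups compared, and interaction calls numbered 2, against 681 with DESeq2. Total-count scaling moved the median of all genes to 0.20 (WT days) and 0.16 (Cthrc1-/- days). It also moved the share of higher calls from 46.0% to 75.5%, from 58.9% to 86.9%, and on day 0 from 60.8% to 71.5%.

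Same-numbered samples correlated between -0.232 and 0.426 in their deviations from group means over 18 pairs. All 3 values were above 0.1 for Cthrc1-/- day 0 with WT day 7 (0.124 to 0.223), which are not compared here. For each pair of groups that is compared at least 1 of the 3 was below 0.1, so the numbers were not taken to pair those samples. With the replicate block, members called were 3 on day 0, 5 for WT between days and 0 in the other comparisons.

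Signs reversed where changes were near 0. Between genotypes on day 7 Hoxc13 had 0.0016 without the filter and 0.0368 with total-count scaling, and Msx2 0.0078 with the replicate block. For the interaction Gata3 had 0.0708 and 0.0852 with limma and pseudocounts of 1 and 0.1, and 0.0885 with the block. With 1 sample left out, log2 changes on day 7 ran from -0.67 to 0.24 (Lef1), -0.56 to 0.14 (Msx1), -0.52 to 0.36 (Msx2), -0.34 to 0.47 (Foxn1), -0.55 to 0.41 (Hoxc13), -0.69 to 0.19 (Dlx3), -0.46 to 0.12 (Shh), -0.16 to 0.65 (Gata3) and -0.27 to 0.48 (Sox21). Between days in Cthrc1-/- they ran from -1.03 to 0.64 (Lef1), -0.10 to 1.07 (Msx1), -1.20 to 0.36 (Msx2), -1.25 to 0.0339 (Hoxc13) and -1.20 to 0.38 (Dlx3). Gata3 ran from -0.69 to 0.22 in WT between days and from -0.53 to 0.35 for the interaction.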
